A study of Rattus norvegicus with 3 samples.

Results

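Peptidases of the renal brush border, and the enzymes that trim angiotensin peptides, were followed in kidney RNA of hypertensive rats given a mussel protein hydrolysate. The 10 genes were taken by name from a given list: Mme, Enpep, Anpep, Prep, Thop1, Rnpep, Mep1a, Mep1b, Dpp4 and Cndp1. All 10 were on the array, among 17782 named genes, and were read by 11 of its 30367 probes on 20 spots. Dpp4 had 2 probes and Rnpep 1 probe printed on 10 spots, while each of the others had a single probe on a single spot. Every one of the 11 probes stood above background on all 3 arrays.

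The animals were male spontaneously hypertensive rats (SHR), a strain on a Wistar background, aged 8 to 10 weeks and weighing 280 to 330 g. Each group of 10 rats received about 3 mL by mouth daily for 28 days. The control group was given water, the low-dose group the hydrolysate (HBMP in the labels) at 10 mg/kg per day and the high-dose group the same at 20 mg/kg per day. No normotensive strain was part of the design, so treated and control animals alike carried the hypertensive background. RNA of 4 rats per group was mixed in equal amounts and hybridised to 1 Agilent rat array with Cy3, a green fluorescent dye. There are therefore 3 arrays and no replicate, which limits the precision and leaves no spread between samples to test against.

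The brush border is the carpet of microvilli on the proximal tubule, and its outer face is dense with peptidases that break filtered peptides into amino acids and small peptides for uptake. Several of these enzymes also shape the supply of angiotensin peptides. Aminopeptidase A (Enpep) turns angiotensin II into angiotensin III, aminopeptidase N (Anpep) shortens angiotensin III further, and neprilysin (Mme) cuts angiotensins, bradykinin and natriuretic peptides. Prolyl endopeptidase (Prep) and thimet oligopeptidase (Thop1) cleave short peptides mostly inside the cell.

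Levels are given as scaled intensity, the brightness of a probe after background subtraction with the arrays brought to an equal 75th percentile. Differences are on the log2 scale, where 1 is a doubling, and the size rule was a difference of at least 2-fold between probes above background on both arrays. Because a probe's brightness also depends on its sequence, levels are compared between arrays and not between genes. The error given for a difference is the technical SD, which is the median SD of spot-by-spot differences among probes printed on 10 spots whose level lay within 1 log2 unit. It holds nothing of the spread between rats, nor of labelling, hybridisation or probe errors that shift all spots of a probe alike. Across the array, 50.4% to 54.7% of probes stood above background, and genes that define kidney were present: 31 of 31 proximal tubule genes, 7 of 7 of the thick ascending limb and 6 of 6 of podocytes were above background on all 3 arrays. All arrays lay on 1 slide, so slide position and group cannot be told apart. The comparisons share arrays, each dose being set against the same control array, so they are not independent of each other.

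The promoter windows of 4 genes are shown: the meprin pair, Mep1b and Mep1a, aminopeptidase N and aminopeptidase B (Rnpep). Mep1b and Rnpep were the ends of the range of low-dose differences. Among the 10 genes, Mep1b, Mep1a and Anpep were those whose window holds a match to the letters marked below. Each window runs from 250 bases before to 50 bases after the start site listed by RefSeq and reads 5′ to 3′ along the gene. Capitals mark GTTAAT, the core of the motif of hepatocyte nuclear factor 1, and CAAAGT, that of hepatocyte nuclear factor 4, on either strand; both factors are active in proximal tubule cells.
Mep1b (GRCr8 chr18:12640791-12641090, plus strand): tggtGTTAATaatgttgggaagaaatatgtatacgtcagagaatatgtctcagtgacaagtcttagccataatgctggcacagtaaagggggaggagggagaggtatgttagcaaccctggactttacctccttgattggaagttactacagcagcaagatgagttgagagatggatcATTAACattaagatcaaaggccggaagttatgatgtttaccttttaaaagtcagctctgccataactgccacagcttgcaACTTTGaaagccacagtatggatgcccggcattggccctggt
Mep1a (GRCr8 chr9:24971651-24971950, plus strand): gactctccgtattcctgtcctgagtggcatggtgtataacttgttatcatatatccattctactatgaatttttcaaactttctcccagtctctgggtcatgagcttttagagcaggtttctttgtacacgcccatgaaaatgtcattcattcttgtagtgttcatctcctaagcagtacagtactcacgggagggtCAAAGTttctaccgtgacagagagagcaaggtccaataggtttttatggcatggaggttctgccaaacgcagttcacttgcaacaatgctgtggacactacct
Anpep (GRCr8 chr1:143195052-143195351, minus strand): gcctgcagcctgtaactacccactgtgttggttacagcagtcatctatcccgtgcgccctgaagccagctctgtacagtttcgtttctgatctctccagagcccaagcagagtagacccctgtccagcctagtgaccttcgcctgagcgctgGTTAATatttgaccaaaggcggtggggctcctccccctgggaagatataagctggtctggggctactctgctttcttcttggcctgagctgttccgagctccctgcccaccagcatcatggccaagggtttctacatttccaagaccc
Rnpep (GRCr8 chr13:49269581-49269880, minus strand): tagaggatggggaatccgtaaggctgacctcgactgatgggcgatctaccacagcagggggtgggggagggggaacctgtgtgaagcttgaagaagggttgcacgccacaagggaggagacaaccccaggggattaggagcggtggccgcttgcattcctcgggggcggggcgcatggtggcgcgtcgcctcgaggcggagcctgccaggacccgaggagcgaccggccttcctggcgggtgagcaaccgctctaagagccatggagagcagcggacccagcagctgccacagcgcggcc
All 10 genes had a window in the RefSeq table. GTTAAT lay in 2 of 10 windows, 2 times in that of Mep1b and 1 time in that of Anpep, against 7.45% of all 33469 windows of this length. CAAAGT was found in 2 of 10, Mep1a and Mep1b, against 14.8% of all, and no match overlapped another. The cyclic AMP response element TGACGTCA was in 0 of 10 windows and in 1.83% of all. The windows of Mme, Enpep, Prep, Thop1, Rnpep, Dpp4 and Cndp1 held no match. Of these genes, Mme, Dpp4 and Cndp1 were at least 2-fold lower than control at the low dose. The matches are of letters, which describe the window and not a bound site.

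The windows fell into a group with up to 8 CpG dinucleotides and a CpG-rich group, a feature that played no part in the choice of the genes. Mep1b had 3 CpG dinucleotides, Mep1a 5, Cndp1 5, Anpep 7 and Enpep 8. These are usual counts, since the median over all windows was 7 and the lower quartile 3. Rnpep had 22, Thop1 24, Dpp4 27, Mme 29 and Prep 45, all above the upper quartile of 19. At the low dose the 5 genes with up to 8 lay between -1.25 (Mep1b) and -0.50 (Enpep) against control. The 5 CpG-rich ones lay between -1.10 (Mme) and 0.29 (Rnpep). Both genes above control, Thop1 and Rnpep, were CpG-rich, but so were Mme, Dpp4 and Prep, at -1.10, -1.08 and -0.99.

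**Figure D1:**
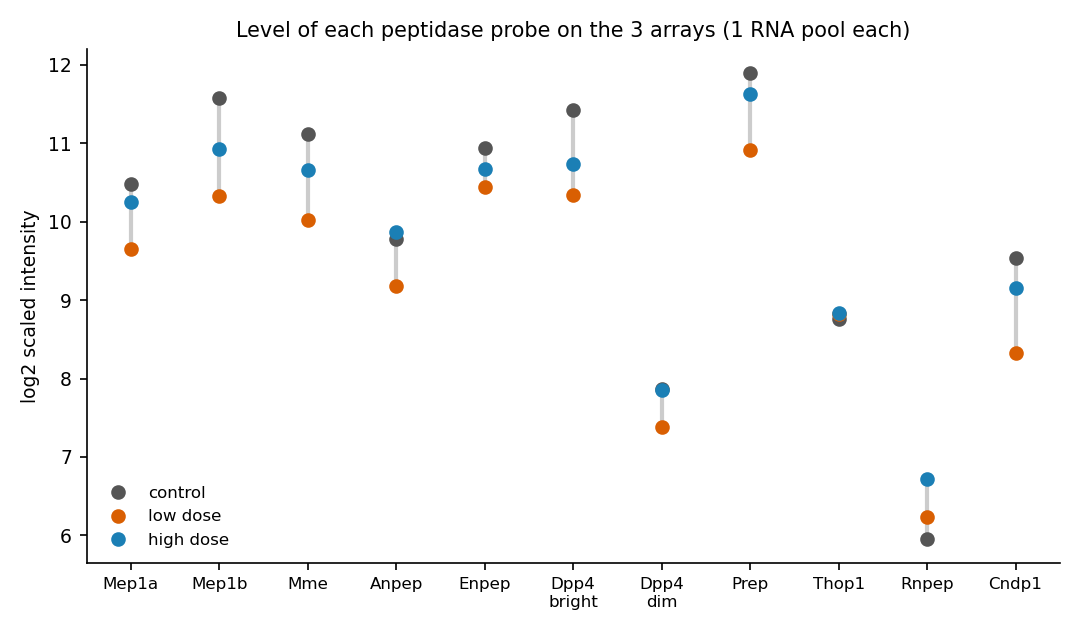
Log2 scaled intensity (vertical axis) of each of the 11 probes, with 1 point for each of the 3 arrays and grey bars joining the lowest and highest. The low-dose point is lowest in 9 probes, all but those of Thop1 and Rnpep; heights of different probes are not comparable.

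At the low dose most of these peptidases stood below control. Of the 10 genes, 4 were at least 2-fold apart from control, all of them lower, where 3.18% of 9724 named genes were 2-fold apart. Over all named genes 0.668% were at least 2-fold lower and 2.51% at least 2-fold higher. The median over the 10 was -0.91 (log2), against -0.11 over all named genes above background on all arrays. Below control by any amount were 8 of 10 genes, where 64.3% of all genes were, and above it 2 of 10, where 35.6% were. The genes past the rule were Mep1b, Cndp1, Mme and Dpp4, with Prep just short of it at -0.99 and Mep1a next at -0.83. After subtracting the median of proximal tubule genes that are no peptidase, 0 of 10 genes passed 2-fold and the median was -0.55, and after subtracting the median of the 500 genes nearest in level 2 passed, Mep1b and Cndp1.

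The high dose differed less from control. None of the 10 genes was 2-fold apart in either direction, where 1.01% of 9878 named genes were, 0.86% higher and 0.152% lower. The median was -0.27, against -0.04 over all genes. Below control were 7 of 10, against 56.4% of all genes, and above it 3 of 10, against 43.6%. With the proximal tubule median subtracted the median of the 10 was 0.09, on the other side of 0.

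The direct comparison of the doses was the most uniform. All 10 genes were higher at the high dose than at the low dose, where 55.2% of 10111 named genes were, although for Thop1 the difference of 0.01 lay within its technical SD of 0.07 and became -0.01 with arrays brought to equal medians and -0.02 with the local median subtracted. The median was 0.59, against 0.04 over all genes, and the range ran from Thop1 to Cndp1 at 0.83. None passed 2-fold, as 1.95% of all genes did, 0.465% higher and 1.48% lower at the high dose. In 7 of 10 genes the control array was highest and the low-dose array lowest, an order held by 24.1% of 9636 genes.

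**Figure D2:**
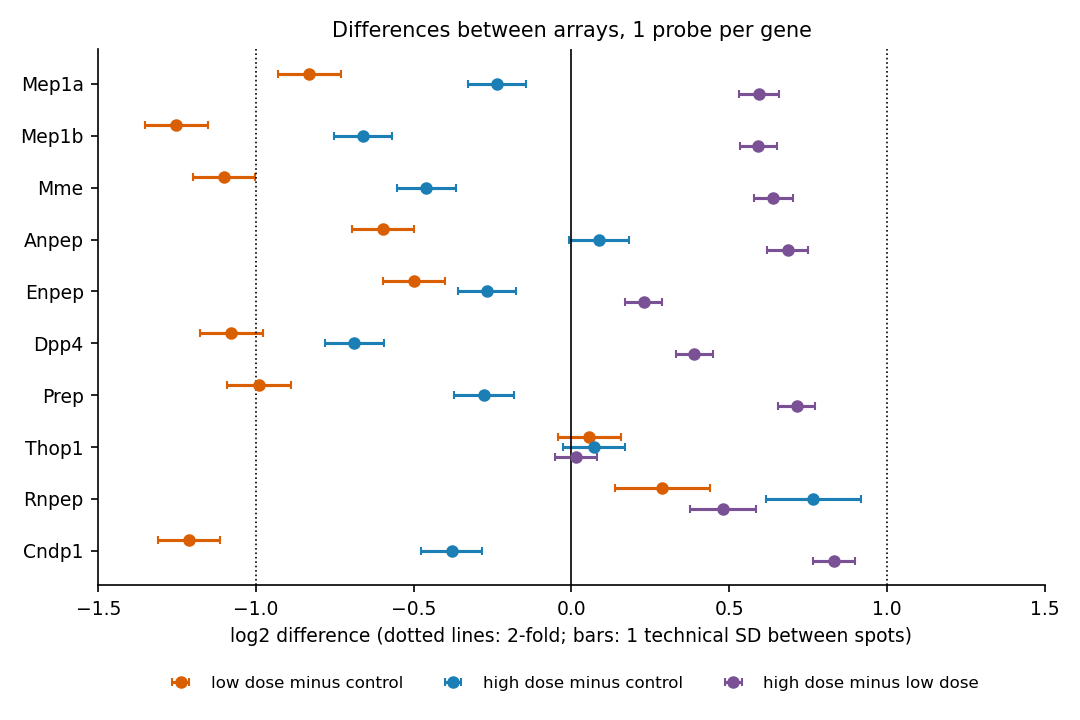
Log2 difference between arrays (horizontal axis) for the 10 genes, with bars of 1 technical SD; dotted lines mark 2-fold. Low dose minus control lies furthest left, at -1.25 for Mep1b, and high dose minus low dose runs from 0.01 for Thop1 to 0.83 for Cndp1.

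Meprins are large zinc endopeptidases of the astacin family. The beta subunit (Mep1b) is anchored in the membrane, and the alpha subunit (Mep1a) is held there by pairing with beta. Mep1b had a scaled intensity of 3067 on the control array, 1288 at the low dose and 1942 at the high dose. It was thus lowest at the low dose, at -1.25 ± 0.10 against control (2.38-fold lower), and lower at the high dose as well, at -0.66 ± 0.09. Mep1a, whose window holds the CAAAGT match on the plus strand, stood at 1432 on control, 805 at the low dose and 1215 at the high dose. Its differences from control, -0.83 ± 0.10 and -0.24 ± 0.09, had the same order and were smaller. Between the doses the subunits differed alike, Mep1b by 0.59 ± 0.06 and Mep1a by 0.59 ± 0.06. Against control, Mep1b was 0.42 further down than Mep1a at each dose, with a technical SD of this gap, taken here from 10-spot probes of all levels, of 0.17 at the low and 0.16 at the high dose.

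Neprilysin, the product of Mme, is the endopeptidase that hypertension drugs of the sacubitril type inhibit. Mme measured 2219 on control, 1035 at the low dose and 1614 at the high dose. At the low dose it was at 46.7% of control, a difference of -1.10 ± 0.10, and at the high dose at 72.7%. The high-dose value lay between the other arrays, 0.64 ± 0.06 above the low dose. Subtracting the median difference of neighbouring spots, within 20 rows and columns, brought the low-dose value to -0.98, inside 2-fold.

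The angiotensin-trimming aminopeptidases Enpep and Anpep are membrane zinc enzymes of 1 family and were nearer to control. Enpep stood at 1960.1 on control, 1388 at the low dose and 1627 at the high dose, which is -0.50 ± 0.10 and -0.27 ± 0.09 against control. Anpep stood at 879, 581 and 934 on the same arrays. Its low-dose difference was -0.60 ± 0.10, while the high-dose array was within a technical SD of control, at 0.09 ± 0.09. Mme and Anpep differed between the doses by nearly the same amount, 0.64 and 0.68, and Enpep by 0.23 ± 0.06.

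Aminopeptidase B, encoded by Rnpep, removes basic residues from the start of a peptide, and it was the gene that went the other way. Its 10 spots ranged from 41.1 to 78.8 on control, from 56.7 to 87.4 at the low dose and from 83.9 to 129.5 at the high dose, with medians of 61.6, 73.9 and 104.4. At the high dose every spot was above every control spot, while low-dose spots overlapped with those of both other arrays. Compared position by position, all 10 spots were higher at the high dose, by 0.79 ± 0.19 (SD over 10 spots) against control and by 0.48 ± 0.08 against the low dose. At the low dose all 10 were higher as well, by 0.31 ± 0.19. The probe was dim, with a signal-to-noise ratio down to 5.29, and under normexp background correction with an offset of 50 the high-dose difference of the probe was 0.39 in place of 0.77. The spots share 1 RNA pool per array, so their SD is technical. The promoter window printed for Rnpep holds neither motif core. The same is true of Mme, Dpp4 and Cndp1, which were at least 2-fold lower at the low dose.

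**Figure D3:**
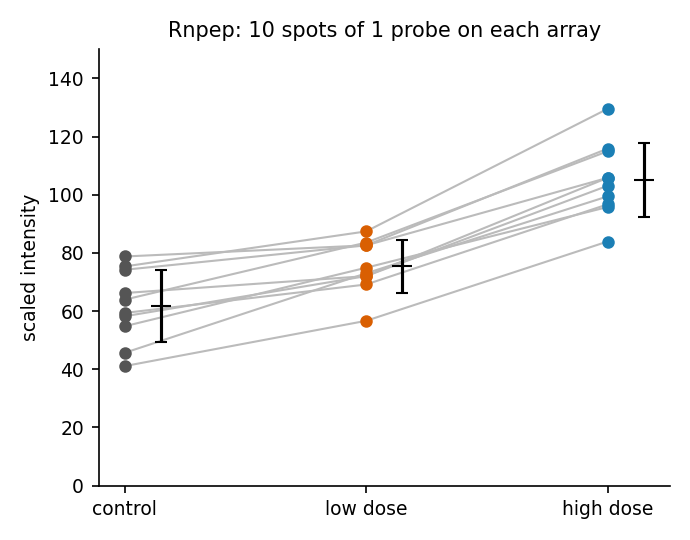
Scaled intensity (vertical axis) of the 10 spots of the Rnpep probe, by array; grey lines join spots at the same array position, and black bars give mean and SD over spots. Means are 61.8, 75.4 and 105 from control to high dose, and each line ends above where it began.

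The soluble oligopeptidases split. Prep, a serine peptidase that cuts after proline in short peptides such as angiotensins and bradykinin, measured 3827 on control, 1926 at the low dose and 3157 at the high dose. Its low-dose difference of -0.99 ± 0.10 fell just short of 2-fold, and with the median in place of the mean of a spot's pixels it was -1.01. At the high dose it was at -0.28 ± 0.09. Thop1, a zinc enzyme that can convert angiotensin I to a shorter vasodilator peptide, was level on all arrays at 435, 452 and 457. Its differences of 0.06 and 0.07 from control were both under the technical SD of 0.10.

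Dpp4 is a serine peptidase of the brush border that removes a dipeptide from incretins and many other peptides, and its 2 probes disagreed. The brighter probe measured 2748 on control, 1301 at the low dose and 1705 at the high dose, which gives -1.08 ± 0.10 and -0.69 ± 0.09 against control. The dimmer probe measured 233, 167 and 232. Its low-dose difference was -0.48 ± 0.11, and at the high dose it stood at -0.01 ± 0.10, level with control. Both probes were lower at the low dose than on either other array. The brighter probe has a single spot, which lacked the scanner software's good flag at the low dose, where its pixel median (1553 before scaling) was above its mean (1355). By pixel medians the low-dose difference was -0.83, and with the authors' deposited log2 values it was -0.80. The 2-fold call of Dpp4 thus rests on 1 spot of 1 probe, and without that probe 3 of 10 genes passed 2-fold at the low dose.

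Cndp1, the dipeptidase that splits carnosine, measured 743 on control, 321 at the low dose and 571 at the high dose. It was at 43.2% of control at the low dose, a difference of -1.21 ± 0.10, and at 76.8% at the high dose. The step between the doses, 0.83 ± 0.07, was the widest of the 10 genes. Cndp1 and Mep1b were the genes that kept their 2-fold call at the low dose under every alternative but the subtraction of the proximal tubule median, where they stood at -0.85 and -0.89.

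**Figure D4:**
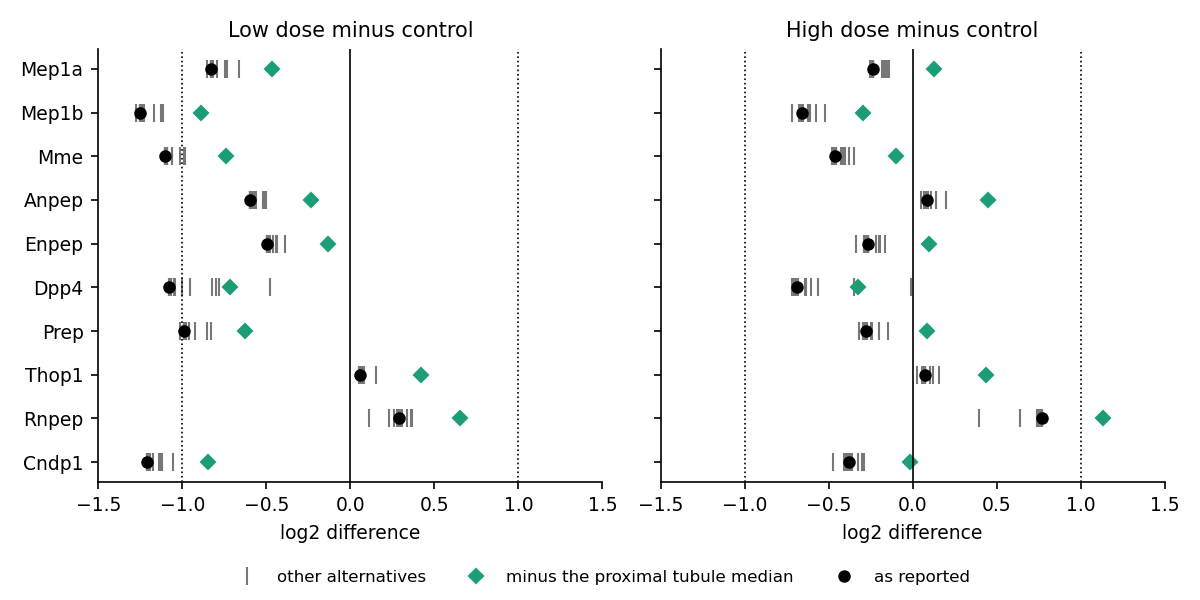
Log2 difference from control (horizontal axis) of the 10 genes at the low and the high dose as reported (black), after subtracting the proximal tubule median (green) and under the other alternatives (grey ticks); dotted lines mark 2-fold. Low-dose values of 8 genes stay below 0 in all settings, and the green points of Enpep, Prep and Mep1a at the high dose lie right of 0.

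Other peptidases and the tubule around them were read from lists chosen with earlier results of these data known. Among other brush border peptidases, 8 of 12 on the array were above background on all arrays, and 0 of 8 passed 2-fold in any comparison. Over all named genes 3.18% passed it at the low dose, 1.01% at the high dose and 1.95% between the doses. The median of the 8 was -0.56 at the low dose and -0.24 at the high dose. Below control were 7 of 8 each time, against 64.3% and 56.4% of all genes. Ggt1, the gamma-glutamyl transferase that breaks down glutathione, stood lowest at both, at -0.87 and -0.53. Dpep1, the renal dipeptidase, was the gene above control at the low dose, at 0.13. Between the doses the median was 0.34, with 6 of 8 higher at the high dose, against 55.2% of all genes.

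Other angiotensin-processing enzymes differed less at the low dose. Of 13 genes 8 were above background on all arrays, with a median of -0.20 at the low and -0.26 at the high dose. Past 2-fold were 0 of 8, against 3.18% of all genes at the low dose and 1.01% at the high dose. Ace, which converts angiotensin I to angiotensin II, was at -0.35 at the low and -0.27 at the high dose. Between the doses the median was -0.03, beside 0.59 for the 10 peptidases. Soluble and lysosomal peptidases lay close to all genes, with medians of -0.08 and -0.09 over 19 measured on all arrays. Past 2-fold at the low dose were 0 of 19, against 3.18% of all genes. Cndp2, the cytosolic relative of Cndp1, was the lowest of the 19 at the low dose, at -0.44.

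Of 13 carriers on the array that take up amino acids and small peptides, 11 were above background throughout, with medians of -0.42 and -0.36. At the low dose 10 of 11 were below control by any amount, where 64.3% of all genes were. Past 2-fold was 1 of 11, against 3.18% of all genes. Slc7a7, a basolateral amino acid carrier, was above control at both doses, at 0.04 and 0.54. The carrier past 2-fold was Slc7a13, an amino acid carrier of the straight proximal tubule, at -1.29 at the low and -0.43 at the high dose. The peptide carriers differed from each other at the low dose, with Slc15a2 at -0.95 and Slc15a1 at -0.01.

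Proximal tubule genes that are no peptidase lay below control by a similar amount at both doses, while the 10 peptidases, and genes of the straight proximal tubule, had medians nearer to control at the high dose. The proximal tubule genes had a median of -0.36 at the low and -0.36 at the high dose, with 0 past 2-fold. Below control were 31 of 31 and 28 of 31, against 64.3% and 56.4% of all genes. The summed scaled intensity of this proximal list was 283864 on control, 224799 at the low dose and 213630 at the high dose. For the 10 peptidases the sums were 17372, 9172 and 13326. Such a sum is weighted toward the brightest probes of its list. Between the doses the proximal list had a median of -0.02, with 15 of 31 higher at the high dose, against 55.2% of all genes. Subtracting its median left the peptidases' median between the doses at 0.62. The straight proximal tubule is the last stretch of that tubule, and 4 of its 5 listed genes were above background on all arrays, of which Slc7a13 and Slc6a18 are also among the carriers. Their median was -1.05 at the low dose, -0.19 at the high dose and 0.54 between the doses, beside -0.91, -0.27 and 0.59 for the 10 peptidases. The 4 genes were not alike at the high dose, with 2 below control and 2 above it, from -0.65 (Slc6a18) to 0.79 (Slc7a12). Between the doses Slc6a18 differed by 0.23. Slc7a12, another amino acid carrier, was past 2-fold as well, at -1.22 at the low dose, and stood at 0.79 at the high dose, so that it was more than 2-fold higher at the high than at the low dose too. Cyp7b1, the remaining gene of the 4, went the other way from the list median. It stood at 0.29 at the low dose, 0.06 at the high dose and -0.24 between the doses. No test of the difference between the lists was possible with 1 array per group. In RNA of whole tissue, fewer cells of a type and less RNA per cell cannot be told apart.

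**Figure D5:**
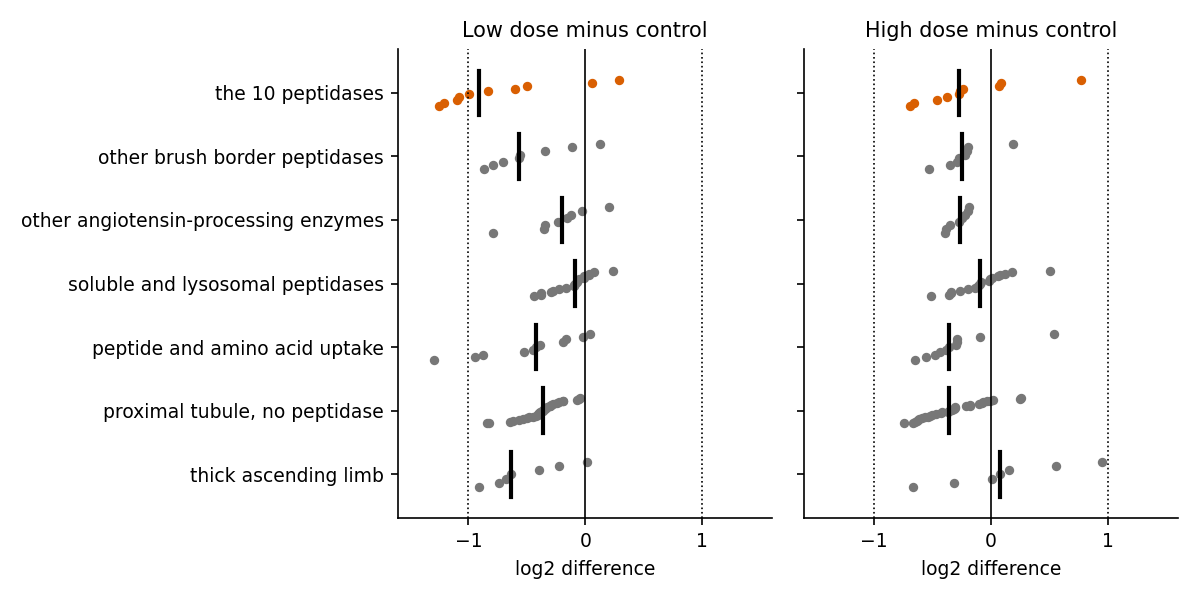
Log2 difference from control (horizontal axis) for genes above background on all arrays, by list, at the low dose (left) and the high dose (right); each point is a gene and black bars are list medians. The 10 peptidases have a median of -0.91 at the low and -0.27 at the high dose, while proximal tubule genes have -0.36 in both panels.

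Markers of other cells also differed between the arrays, and their part in the differences of the peptidases was not tested. Genes of the thick ascending limb, which lies beyond the proximal tubule, had medians of -0.63 at the low dose, 0.08 at the high dose and 0.78 between the doses. Higher at the high than at the low dose were 7 of 7, against 55.2% of all genes. The sums of the 7 were 46958, 34175 and 40557 from control over low to high dose, of which Umod alone made up 37002, 28204 and 29647. Distal tubule and collecting duct genes had medians of -0.25 and 0.22 but sums of 26333, 46153 and 32997. Much of these sums was 1 probe, that of Aqp2, the water channel of the collecting duct, at 12205, 30805 and 18756. At the low dose 8 of 13 genes were below control and 5 above it, where 64.3% and 35.6% of all genes were. Aqp2 and Fxyd4 were each at 1.34 at the low dose, the 2 of 13 past 2-fold. Fibroblast and matrix genes had sums of 3958, 13195 and 4394, and 6 of 6 measured were at least 2-fold higher at the low dose, with Lum and Postn not above background on any array. Adipocyte genes had sums of 793, 7693 and 3395, with 5 of 6 measured at least 2-fold higher at each dose and Plin1 and Lep not above background. Macrophage and dendritic cell genes had sums of 2527, 5558 and 2567, with 4 of 8 at least 2-fold higher at the low dose and Mrc1 not above background. Inner medulla genes had sums of 1413, 2743 and 2178, with 3 of 6 at least 2-fold higher at each dose. Over all named genes 2.51% were at least 2-fold higher than control at the low dose and 0.86% at the high dose.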

How the data were processed

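Kidney RNA pools of 3 groups were measured on 1 array each, grouped by the sample titles. The deposited scanner files, made with GenePix Pro 6.1.0.4 per the file headers, hold spot intensity at 532 nm from which the authors' software had subtracted a background of 39 or 40. The signal-to-noise score, the flags and the percent of saturated pixels of each spot are deposited there too, per the file headers. No spot of the 10 genes had saturated pixels. A deposited table gives the authors' log2 values, scaled by a method not given in the sources used here (median 4.77 in every column, r of at least 0.999 with the scanner values of the same array). Agilent Feature Extraction appears in the submitters' processing notes. A mouse design is named in the header of the high-dose array, but all 45220 spots carry the rat annotation, and r with the control array was 0.989.

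Control spots, bright spots marked as not found (6, 5 and 6 on control, low-dose and high-dose arrays) and spots whose net pixel mean and median differed over 1.5-fold (166, 139 and 80) were left out. Spots of a probe were averaged, scaled to an equal 75th percentile (factors 1.14, 0.960 and 0.912), floored at 1 and put on the log2 scale. A probe was above background when the signal-to-noise ratio reached 3 in 50% of its spots. Genes were named through RefSeq (GRCr8), by accession for 18347 probes, else by symbol (2766), synonym (422) or the name in the scanner file (163). The probe above background on most arrays, then the brightest, stood for a gene. No p-value was computed. Calculations used Python 3.11.15, pandas 2.3.3 and, for normexp, limma 3.58.1, and were tested on simulated data. The members, lists, motifs and naming rule were chosen with earlier results of these data known. All 10 members are named, and of other lists members past 2-fold, the ends of the range and those nearest to 0; other genes named from them were chosen after their values were seen, and some genes of the lists are not reported here. Lists that the text does not use further had low-dose and high-dose medians of -0.30 and -0.31 (podocyte), -0.01 and 0.03 (endothelium), 0.69 and 0.11 (T, NK and B cells) and 0.29 and 0.31 (blood).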

Additional observations from a re-analysis of the deposited data

How the results depend on the processing

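The results for the 10 genes were recomputed under 14 alternatives, of which 3 were added after the data were seen (local position, genes of like level, the other Dpp4 probe). The low-dose count of 4 genes past 2-fold became 0 after subtracting the proximal tubule median and 2 after subtracting the median of genes of like level, and was 3 or 4 under the other 12. The low-dose median of -0.91 became -0.55 after subtracting the proximal tubule median, -0.76 after subtracting the local median, -0.78 against genes of like level and -0.71 with the other Dpp4 probe. At the high dose, subtracting the proximal tubule median gave 1 gene past 2-fold, Rnpep, and a median of 0.090 in place of -0.27. Between the doses the count stayed at 0 and the median between 0.54 and 0.62 in all 14. The causes of these shifts were not tested. Over all genes, 244 higher and 65 lower at the low dose became 955 and 1701 with dim probes left in, 133 and 23 under normexp, and 584 and 9 minus the proximal tubule median. At the high dose, 85 and 15 became 1047 and 959, 37 and 2, and 285 and 1. Between the doses, 47 and 150 became 1586 and 695 with dim probes, 19 and 70 under normexp, and 29 and 102 with 16 added before the log. No paired analysis was possible because each group has 1 array. With 1 pool per group the spread between rats is unknown, and dim probes such as that of Rnpep depend on the background correction.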
